A study of Rattus norvegicus with 9 samples.

Results

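The Nogo receptor complex and its ligands were followed in mPFC tissue of rats, as the 7 genes Rtn4, Omg, Rtn4r, Rtn4rl1, Rtn4rl2, Lingo1 and Lingo2. They were taken by their symbols from the table of gene levels, which has 34463 rows, and 6 of the 7 have a row there. No row carries the symbol Lingo2, which was not analysed here. The set was chosen by measured values, since Lingo1 and Rtn4rl2 were among the clearest differences in level between the PHL + CMS and Veh + CMS groups. For that reason the levels in this comparison are given as a description, without a test, for all 6 genes. No test is given for Lingo1 and Rtn4rl2 in the other comparisons either, because these share the PHL + CMS or the Veh + CMS libraries with the comparison that chose both genes.

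The libraries came from the mPFC of male Sprague-Dawley (SD) rats in 3 groups of 3 libraries each. PHL + CMS rats received phloretin (PHL), a dihydrochalcone found in apples, and chronic mild stress (CMS), a series of varied stressors over 3 weeks. For work in vivo the study chose 20 mg/kg of PHL and started it 2 weeks before CMS. Veh + CMS rats received the vehicle and CMS, and Veh rats received the vehicle and stayed undisturbed in their home cages. Rats given PHL without CMS were not analysed here, and nothing in the labels says whether a library came from 1 animal or from pooled tissue, so p-values measure the spread between these libraries, part of which may be technical.

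Rtn4 encodes Nogo, a reticulon of the endoplasmic reticulum and the surface of oligodendrocytes and neurons, whose long form stops growing axons. Nogo, the oligodendrocyte-myelin glycoprotein encoded by Omg and the myelin-associated glycoprotein encoded by Mag bind the Nogo receptor encoded by Rtn4r, which is tied to the neuronal membrane by a lipid anchor and therefore signals through partners. LINGO1 is such a partner, and in adult cortex the receptor is known as a brake on the turnover of axons, spines and synapses. Rtn4rl2 and Rtn4rl1 encode close relatives of the receptor, which bind Mag and chondroitin sulfate proteoglycans.

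The starts of 4 of these genes are shown because 3 of them (Lingo1, Rtn4rl2 and Rtn4r) were low together in the Veh + CMS libraries and Omg was not. The RefSeq table of promoters (build GRCr8) matched 5 of the 7 symbols, without Rtn4 and Rtn4rl1, and gives 300 bases for each gene, from 250 before to 50 after a start. Capitals mark the GC box, GGGCGG or its reverse complement CCGCCC, on either strand. The Lingo1 window is chr8:65924117-65924416, that of Rtn4rl2 is chr3:90377726-90378025, that of Rtn4r is chr11:96373505-96373804 and that of Omg is chr10:64962001-64962300, all on the minus strand.
Lingo1: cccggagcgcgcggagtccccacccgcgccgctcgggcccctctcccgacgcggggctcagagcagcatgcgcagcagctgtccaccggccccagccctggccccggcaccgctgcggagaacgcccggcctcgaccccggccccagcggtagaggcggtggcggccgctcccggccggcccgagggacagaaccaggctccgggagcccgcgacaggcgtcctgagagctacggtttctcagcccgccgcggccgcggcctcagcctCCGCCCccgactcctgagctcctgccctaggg
Rtn4rl2: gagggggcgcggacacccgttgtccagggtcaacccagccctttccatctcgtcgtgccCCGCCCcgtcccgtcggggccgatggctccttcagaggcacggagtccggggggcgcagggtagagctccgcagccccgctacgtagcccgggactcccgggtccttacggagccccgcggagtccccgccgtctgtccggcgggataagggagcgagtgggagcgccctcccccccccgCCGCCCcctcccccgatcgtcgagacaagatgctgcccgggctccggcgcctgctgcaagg
Rtn4r: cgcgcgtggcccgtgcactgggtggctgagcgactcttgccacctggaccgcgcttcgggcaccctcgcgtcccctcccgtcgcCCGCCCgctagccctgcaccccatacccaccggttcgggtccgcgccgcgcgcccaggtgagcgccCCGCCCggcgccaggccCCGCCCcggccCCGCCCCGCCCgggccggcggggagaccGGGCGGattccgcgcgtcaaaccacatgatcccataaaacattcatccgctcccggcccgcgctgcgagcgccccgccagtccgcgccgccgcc
Omg: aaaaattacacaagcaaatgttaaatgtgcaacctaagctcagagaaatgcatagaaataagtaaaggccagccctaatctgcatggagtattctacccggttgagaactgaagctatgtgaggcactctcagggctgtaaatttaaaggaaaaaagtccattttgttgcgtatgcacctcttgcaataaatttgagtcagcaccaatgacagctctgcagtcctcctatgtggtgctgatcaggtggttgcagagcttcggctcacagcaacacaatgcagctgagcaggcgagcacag

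The windows of Lingo1 and Rtn4r were each 78% G or C and that of Rtn4rl2 was 74%, against 44.7% for Omg and a median of 51.7% over 33469 windows of the same length. They held 39 (Lingo1), 48 (Rtn4r) and 35 (Rtn4rl2) CG pairs, against 4 in the Omg window and a median of 7. A GC box occurred 6 times in the Rtn4r window, with 1 base shared between a pair of neighbouring matches, 2 times for Rtn4rl2, 1 time for Lingo1 and 0 times for Omg, and 33.1% of all windows held at least 1. The letters TGACGTCA of the cAMP response element, found in 1.83% of windows, and TATAAA of the TATA box, found in 14.2%, were in none of the 4. These 4 windows were picked by the levels of their genes, and Omg alone stands for genes that were not low. Rtn4rl1, which was also low in the Veh + CMS libraries, and Rtn4, which was not, have no window. Whether the sequences bear on the levels was not tested.

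All 6 genes were read well above the noise of counting. The level is given in FPKM, fragments per kilobase of gene length scaled to the depth of the library, which allows genes to be compared with each other. Multiplying FPKM by gene length gave back whole reads, and the fewest reads on any of the 6 genes in any library were 473, for Rtn4rl2, which corresponds to a counting error of 4.60%. The libraries held 14859419 to 16960004 reads on genes in the PHL + CMS group, 15198823 to 16328673 in the Veh + CMS group and 13913639 to 16280963 in the Veh group. Lingo1 averaged 172 FPKM over the 9 libraries, which placed it at position 418 of the 16159 genes tested. Rtn4 followed with 125 FPKM, Omg with 91.0, Rtn4r with 59.1, Rtn4rl2 with 41.8 and Rtn4rl1 with 23.6. Lingo1 exceeded Rtn4 in 8 of 9 libraries, and their ranges overlapped in the Veh + CMS group, where Rtn4 was higher in 1 library. Every other neighbour in this order kept its place in 9 of 9 libraries, without overlap inside any group.

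Lingo1 (ENSRNOG00000017193, chromosome 8 of Rnor_6.0 from 61274017 to 61290240) encodes a membrane protein with leucine-rich repeats that joins the Nogo receptor as a coreceptor and that also holds back the maturation of oligodendrocytes. Its level was 202, 200.04 and 199 FPKM in the PHL + CMS libraries, against 137, 111 and 151 FPKM in the Veh + CMS libraries. The Veh libraries stood at 188, 178 and 186 FPKM. Every Veh + CMS library was below all 6 others, by at least 27.2 FPKM, and the PHL + CMS libraries lay above the Veh libraries by at least 10.5 FPKM. The SD was 0.909% of the mean in the PHL + CMS group, 15.3% in the Veh + CMS group and 2.99% in the Veh group. The value for PHL + CMS is below the counting error at the fewest reads of that group (1.17%). It is therefore too small to be read as the spread between such libraries, and a difference in spread was not tested. The log2 fold change between PHL + CMS and Veh + CMS was 0.60 (SE 0.10). Between Veh + CMS and Veh it was -0.48 (SE 0.10), and between PHL + CMS and Veh it was 0.12 (SE 0.10). Fold changes are on the scale of log2(FPKM + 0.1) and come from 1 limma fit over all genes and all 9 libraries.

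**Figure D1:**
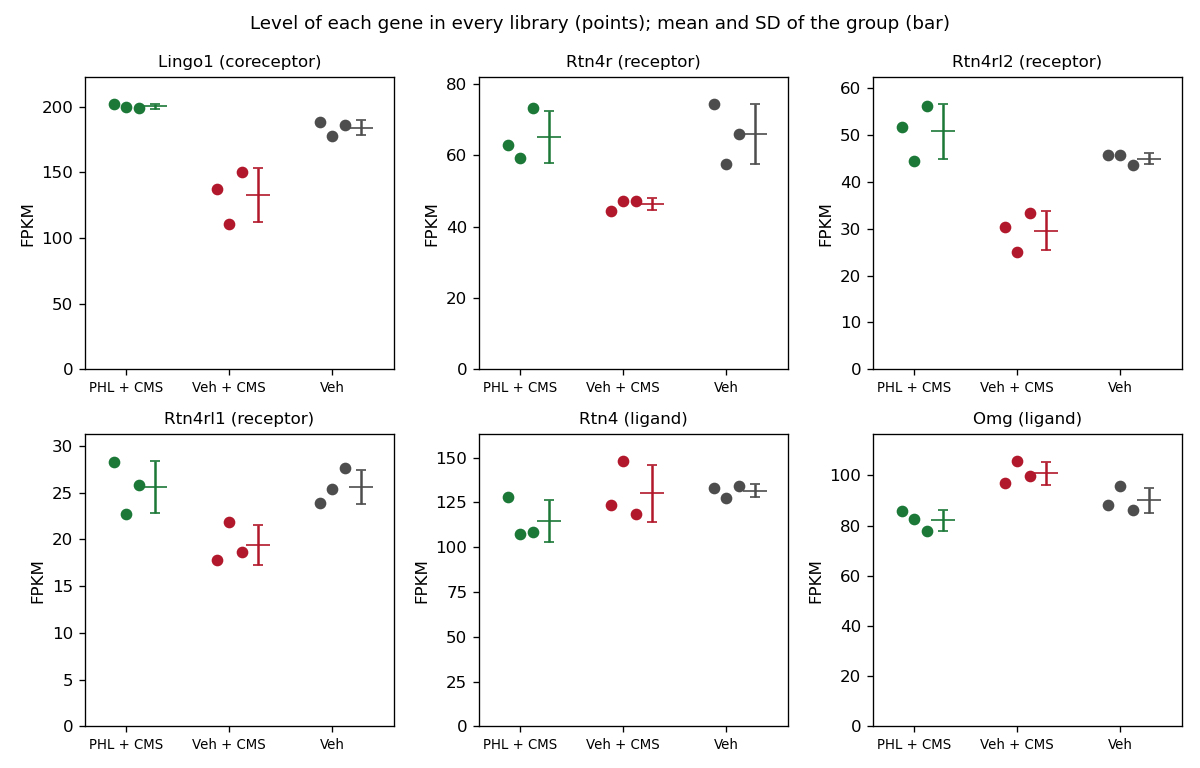
Level of each of the 6 genes in FPKM (vertical axes, from 0) in every library of the PHL + CMS, Veh + CMS and Veh groups, with replicates 1 to 3 as points from left to right and the mean ± SD as a bar beside them. For Lingo1, Rtn4r, Rtn4rl2 and Rtn4rl1 the 3 Veh + CMS libraries sit below all others, while Rtn4 and Omg stay between 77.8 and 148 FPKM without such a gap below.

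Rtn4r (ENSRNOG00000030920, chromosome 11 from 86992399 to 87017115), the receptor for Nogo, Omg and Mag, was at 63.0, 59.2 and 73.2 FPKM in the PHL + CMS libraries and at 44.2, 47.3 and 47.2 FPKM in the Veh + CMS libraries. In the Veh libraries it was at 74.4, 57.6 and 66.0 FPKM. The Veh + CMS libraries were the 3 lowest, and the ranges of the PHL + CMS and Veh libraries overlapped. Rtn4r fell by 0.51 on the log2 scale in the Veh + CMS group relative to the Veh group (SE 0.11, limma adjusted p = 0.0424), which was 46.2 ± 1.71 against 66.0 ± 8.40 FPKM (SD, n = 3 each). The log2 fold change was 0.49 (SE 0.11) for PHL + CMS against Veh + CMS and -0.02 (SE 0.11, limma adjusted p = 0.974) for PHL + CMS against Veh. The call against Veh was close to its threshold. It was lost without any of Veh replicate 1, 2 or 3 (limma adjusted p = 0.131, 0.116 and 0.0751), without Veh + CMS replicate 1, 2 or 3 (0.104, 0.0911 and 0.106) and without PHL + CMS replicate 1 (0.0647), with a log2 fold change between -0.60 and -0.42.

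Rtn4rl2 (ENSRNOG00000021513, chromosome 3 from 72273424 to 72289310), a relative of the receptor that binds Mag, had the largest log2 fold change of the 6 genes between the PHL + CMS and Veh + CMS groups, while in FPKM the difference of means was larger for Lingo1 (67.4 FPKM) than for Rtn4rl2 (21.2 FPKM). It was at 51.8, 44.6 and 56.1 FPKM in the PHL + CMS libraries, against 30.3, 25.1 and 33.5 FPKM in the Veh + CMS libraries. The Veh libraries stood close together at 45.7, 45.7 and 43.6 FPKM. Again the Veh + CMS libraries lay below all others, by at least 10.1 FPKM, and the PHL + CMS libraries spread around and above the Veh range. The log2 fold change between PHL + CMS and Veh + CMS was 0.78 (SE 0.12). Between Veh + CMS and Veh it was -0.61 (SE 0.12), and between PHL + CMS and Veh it was 0.17 (SE 0.12).

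Rtn4rl1 (ENSRNOG00000003121, chromosome 10 from 62035866 to 62109078), a relative of the receptor that binds chondroitin sulfate proteoglycans, was at 28.3, 22.7 and 25.9 FPKM in the PHL + CMS libraries and at 17.8, 21.9 and 18.6 FPKM in the Veh + CMS libraries. In the Veh libraries it was at 23.9, 25.4 and 27.6 FPKM. The Veh + CMS libraries were the lowest here too, but the gap to the nearest PHL + CMS library was 0.849 FPKM. The log2 fold change was 0.40 (SE 0.11) for PHL + CMS against Veh + CMS. For Veh + CMS against Veh it was -0.40 (SE 0.11), which did not pass (limma adjusted p = 0.0775), and for PHL + CMS against Veh it was 0.00 within rounding (SE 0.11, limma adjusted p = 0.994).

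Of the ligands, Rtn4 (ENSRNOG00000004621, chromosome 14 from 114126943 to 114174458) was at 128, 107 and 109 FPKM in the PHL + CMS libraries, against 123, 148 and 118 FPKM in the Veh + CMS libraries. The Veh libraries were at 133, 127 and 134 FPKM. All 3 groups overlapped with each other. The log2 fold change between PHL + CMS and Veh + CMS was -0.18 (SE 0.10), and -0.08 without Veh + CMS replicate 2. Neither the difference of Veh + CMS from Veh (-0.02, SE 0.10, limma adjusted p = 0.925) nor that of PHL + CMS from Veh (-0.20, SE 0.10, limma adjusted p = 0.524) passed. The long form of Nogo and its shorter forms share this row, so their levels could not be separated.

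Omg (ENSRNOG00000014107, chromosome 10 from 66845654 to 66848388), the oligodendrocyte-myelin glycoprotein that neurons also make, was at 85.9, 82.6 and 77.8 FPKM in the PHL + CMS libraries and at 97.0, 106 and 99.8 FPKM in the Veh + CMS libraries. In the Veh libraries it was at 88.2, 95.8 and 86.1 FPKM. The Veh + CMS libraries were highest and the PHL + CMS libraries lowest, although the gaps to the Veh range were 1.18 and 0.179 FPKM. The log2 fold change between PHL + CMS and Veh + CMS was -0.30 (SE 0.07). Neither the difference of Veh + CMS from Veh (0.16, SE 0.07, limma adjusted p = 0.219) nor that of PHL + CMS from Veh (-0.13, SE 0.07, limma adjusted p = 0.553) passed. Omg lies inside Nf1, a gene of the opposite strand that averaged 7.48 FPKM, and no source says that strand was used in counting, so reads in the overlap cannot be told apart.

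**Figure D2:**
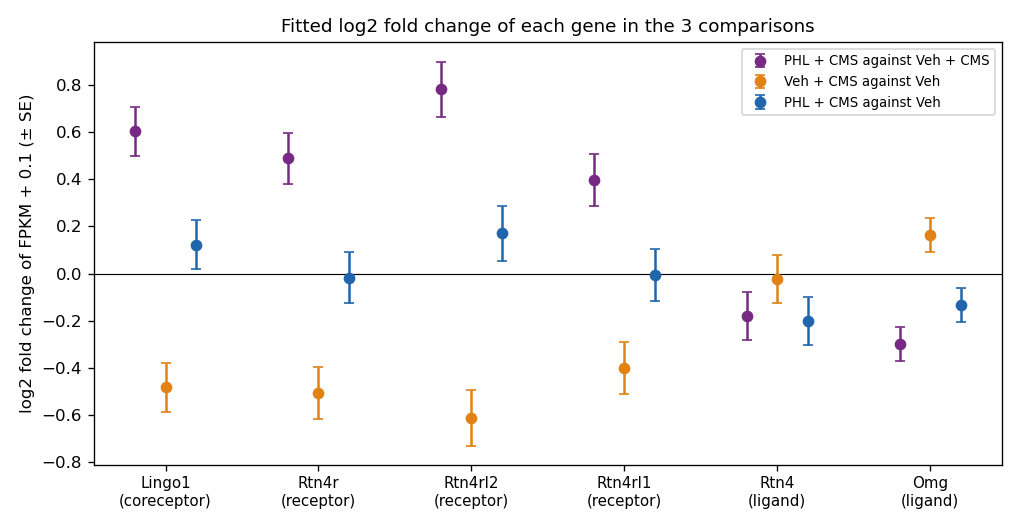
Fitted log2 fold change of FPKM + 0.1 (vertical axis, ± SE) of the 6 genes (horizontal axis) in 3 comparisons, which set PHL + CMS beside Veh + CMS, Veh + CMS beside Veh, and PHL + CMS beside Veh. The coreceptor and the 3 receptors lie between 0.40 and 0.78 in the first comparison and between -0.61 and -0.40 in the second, and the ligands Rtn4 and Omg lie between -0.30 and 0.16 in all 3.

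As a group, 4 of the 6 genes were lower and 1 was higher in every Veh + CMS library than in any Veh library. The lower ones were Lingo1, Rtn4rl2, Rtn4r and Rtn4rl1, and the higher one was Omg. Lingo1 and Rtn4rl2 chose the set partly through these same Veh + CMS libraries. The count and the median of the 6 genes in this comparison are therefore a description. The 4 genes tested here use the same Veh + CMS libraries, so their counts are not independent of the choice of the set. Over all 16159 genes tested, 13.5% were lower and 14.1% higher without overlap in the same comparison. Of the 4 genes tested there, 1 (Rtn4r) passed an adjusted p under 0.05 in limma, against 3.79% of all genes (2.65% higher and 1.14% lower), and 3 of the 4 had an unadjusted p under 0.05, against 22.3%. Between PHL + CMS and Veh + CMS, 4 of the 6 were higher and 1 was lower without overlap, against 10.5% and 10.7% of all genes, and this is the comparison that chose them. Between PHL + CMS and Veh, 1 was higher and 1 lower without overlap, against 8.77% and 8.78% of all genes (17.5% together), and of the 4 tested 0 passed in limma and 0 had an unadjusted p under 0.05, against 4.99% higher and 5.78% lower over all genes. The median log2 fold change of the 6 genes was 0.44, -0.44 and -0.01 for PHL + CMS relative to Veh + CMS, for Veh + CMS relative to Veh and for PHL + CMS relative to Veh, beside 0.01, -0.02 and 0.00 over all genes. The first and second comparison share the Veh + CMS libraries, so low values in these appear in both with opposite signs. No gene of the table passed an adjusted p under 0.05 between PHL + CMS and Veh + CMS in limma, while 2542 genes (15.7%) had an unadjusted p under 0.05, and voom, limma's model for counts, also called 0 on the recovered reads.

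Ratios between genes of the same library do not depend on how libraries were scaled to each other. They do depend on how the set was chosen. Lingo1 and Rtn4rl2, which is part of the receptor sum, were picked by their difference between PHL + CMS and Veh + CMS. Gaps between these groups in ratios that hold either gene therefore follow partly from the choice, and the ratios are given as a description. The 3 receptors together (Rtn4r, Rtn4rl1 and Rtn4rl2) summed to 143, 126 and 155 FPKM in the PHL + CMS libraries, against 92.4, 94.2 and 99.3 FPKM in the Veh + CMS libraries, and to 144, 129 and 137 FPKM in the Veh libraries. Divided by the sum of Rtn4 and Omg, this gave 0.722 ± 0.0956 in the PHL + CMS group, 0.415 ± 0.0422 in the Veh + CMS group and 0.616 ± 0.0375 in the Veh group (SD, n = 3 each). The ratio ran from 0.371 to 0.455 in the Veh + CMS libraries and from 0.576 to 0.832 in the 6 others. Lingo1 stood at 2.44 ± 0.102 times Omg in the PHL + CMS group, at 1.32 ± 0.246 times in the Veh + CMS group and at 2.05 ± 0.170 times in the Veh group (SD, n = 3 each), and these 3 ranges did not overlap. Relative to the 3 receptors, in contrast, Lingo1 was at 1.43 ± 0.151 in the PHL + CMS group, 1.39 ± 0.190 in the Veh + CMS group and 1.35 ± 0.0386 in the Veh group (SD, n = 3 each), with overlapping ranges.

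**Figure D3:**
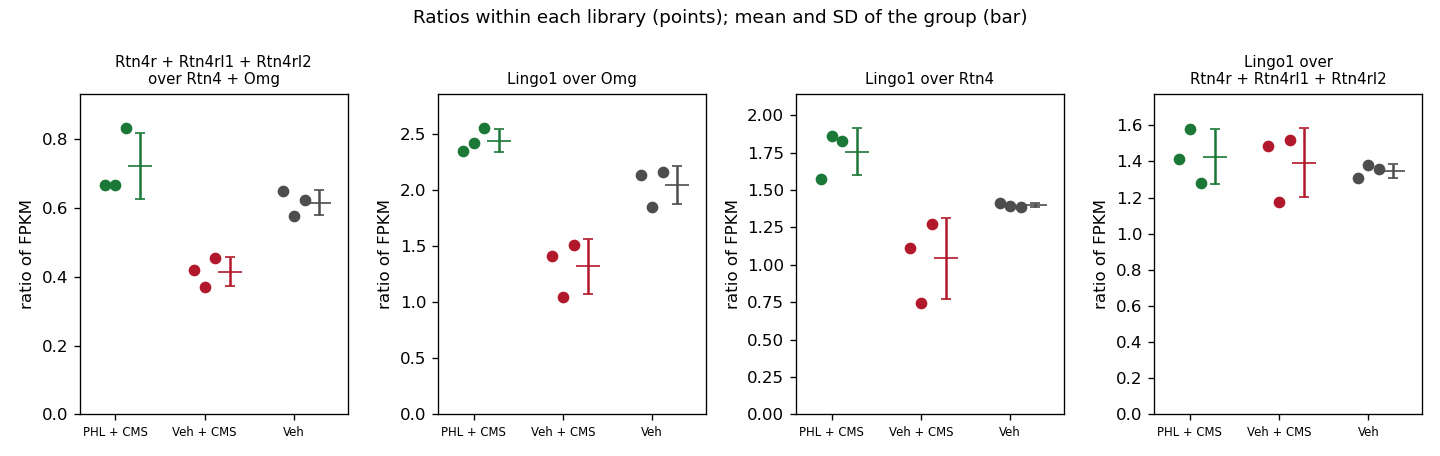
Ratio of FPKM values within each library (vertical axes, from 0) for the 3 receptors over the 2 ligands, Lingo1 over Omg, Lingo1 over Rtn4 and Lingo1 over the 3 receptors, with replicates 1 to 3 of each group as points and the mean ± SD as a bar. The Veh + CMS libraries are lowest in the first 3 panels (0.371 to 0.455, 1.05 to 1.51 and 0.746 to 1.27), while in the last panel the groups overlap between 1.18 and 1.58.

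The make-up of the receptor sum differed less than its size. Rtn4r made up 46.0 ± 1.73% of it in the PHL + CMS group, 48.5 ± 1.44% in the Veh + CMS group and 48.2 ± 3.45% in the Veh group (SD, n = 3 each). Rtn4rl1 made up 18.1 ± 1.56%, 20.4 ± 2.43% and 18.8 ± 1.92% in the same groups, and Rtn4rl2 35.9 ± 0.552%, 31.1 ± 3.86% and 33.0 ± 2.17%. The share of Rtn4rl2, a gene that chose the set, was 35.2% to 36.2% in the PHL + CMS libraries. In the Veh + CMS libraries it was 26.6% to 33.7%, without overlap with PHL + CMS. Its lowest share, 26.6%, was in Veh + CMS replicate 2. In that library Lingo1 and Rtn4rl2 were at their lowest of all libraries, and Rtn4 and Omg at their highest. Without it the log2 fold changes for PHL + CMS against Veh + CMS were 0.48 for Lingo1 and 0.67 for Rtn4rl2, against 0.60 and 0.78 with all libraries.

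The profiles over the 9 libraries were then compared by the root mean square difference of log2 levels, each centred on its own mean. Lingo1 and Rtn4rl2 were 0.12 apart by this measure, Lingo1 and Rtn4r 0.17, Rtn4r and Rtn4rl1 0.16, and Rtn4 and Omg 0.12, while Lingo1 and Omg were 0.41 apart. The median distance to all named genes was 0.36 for Lingo1 and 0.26 for Omg. Among all named genes tested, those nearest to Lingo1 were Ly6h (0.08), a lipid-anchored protein of neurons, Tp53i11 (0.08), Cavin3 (0.09) and Rps6kl1 (0.10). Ly6h averaged 290.1 FPKM in the PHL + CMS group, 208 in the Veh + CMS group and 281 in the Veh group. Nearest to Rtn4rl2 were Rps6kl1 (0.11), Lingo1 and 2 others, nearest to Rtn4r was RGD1566099 (0.06) followed by Kcnk12 (0.09), a potassium channel subunit, and nearest to Rtn4rl1 was Trpc4 (0.04), a cation channel. For Omg it was Itm2b (0.05) and for Rtn4 it was Rxylt1 (0.06). These distances describe 9 libraries in 3 groups and carry no test. Lingo1 and Rtn4rl2 were both picked by their difference between PHL + CMS and Veh + CMS, which is part of these profiles. Their closeness to each other therefore follows partly from the choice.

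Of 11 other ligands and modulators of the pathway tested, 3 passed in limma as higher and 0 as lower in the Veh + CMS group relative to the Veh group (adjusted p under 0.05), against 2.65% and 1.14% of all genes, with a median log2 fold change of -0.13 beside -0.02 over all genes. Mag, a ligand of the Nogo receptor found in myelin, was at 123 ± 58.4 FPKM in the PHL + CMS group, 232 ± 29.2 FPKM in the Veh + CMS group and 73.2 ± 7.32 FPKM in the Veh group (SD, n = 3 each). It rose by 1.66 on the log2 scale in the Veh + CMS group relative to the Veh group (SE 0.27, limma adjusted p = 0.0263). Sema4d, a semaphorin of oligodendrocytes, rose by 1.23 (SE 0.21, limma adjusted p = 0.0263), and Vcan, a chondroitin sulfate proteoglycan, by 0.91 (SE 0.18, limma adjusted p = 0.0345). Olfm1, a secreted neuronal protein that binds the Nogo receptor, did not pass in the same comparison (-0.33, SE 0.09, limma adjusted p = 0.0719), and was at 427 ± 11.3 FPKM in the PHL + CMS group, 341 ± 33.4 in the Veh + CMS group and 427 ± 26.8 in the Veh group (SD, n = 3 each). When either Veh replicate 1 or Veh + CMS replicate 3 was left out, 0 genes of the table passed, against 613 with all libraries, and 1 passed when Veh replicate 2 or either of Veh + CMS replicates 1 and 2 was left out. Without PHL + CMS replicate 1 it was 243 and without PHL + CMS replicate 3 it was 399.

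For PHL + CMS against Veh + CMS, 0 of the 11 passed in limma, with 2 higher and 3 lower at an unadjusted p under 0.05, against 7.51% and 8.22% of all genes. The lower ones were Mag (log2 fold change -1.01, SE 0.27), Sema4d (-0.72, SE 0.21) and Vcan (-0.56, SE 0.18). Mag ranged over 81.1 to 189 FPKM in the PHL + CMS libraries and over 202 to 259.6 FPKM in the Veh + CMS libraries. The higher ones were Olfm1 (0.33, SE 0.09) and Adgrb2 (0.25, SE 0.06), an adhesion receptor of the family that binds Nogo receptors. Without PHL + CMS replicate 2, 285 genes of the table passed in this comparison, against 0 with all libraries. For PHL + CMS against Veh, 0 of the 11 passed and 3 were higher at an unadjusted p under 0.05, against 4.99% of all genes.

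Of 9 other coreceptors and receptors of these ligands tested, 0 passed in any of the 3 comparisons in limma. At an unadjusted p under 0.05 there was 1 for PHL + CMS against Veh + CMS, against 15.7% of all genes. There were 0 for Veh + CMS against Veh (22.3% of all genes) and 0 for PHL + CMS against Veh (10.8%). The 1 gene was Ptprs, a phosphatase receptor for chondroitin sulfate proteoglycans, with a log2 fold change of 0.22 (SE 0.06). Ptprs averaged 68.0 FPKM in the PHL + CMS group, 58.4 in the Veh + CMS group and 64.1 in the Veh group, and its Veh + CMS libraries lay below all others (-0.13, SE 0.06, limma adjusted p = 0.262 for Veh + CMS against Veh). Nus1, which encodes the Nogo-B receptor, was also lower without overlap in the Veh + CMS libraries than in the Veh libraries (-0.15, SE 0.08, limma adjusted p = 0.269). Ptprs and Nus1 were the 2 of the 9 lower without overlap in this comparison, against 13.5% of all genes. Tnfrsf19, a coreceptor that can stand in for the neurotrophin receptor Ngfr, was at -0.30 (SE 0.17) for PHL + CMS against Veh + CMS and at 0.22 (SE 0.17) for Veh + CMS against Veh. Ngfr itself averaged 0.389 FPKM and was left out by the filter, as were Lingo4 (0.0299 FPKM) and Lilrb3 (0.0806 FPKM). Lingo3, a relative of Lingo1 that averaged 8.87 FPKM, had log2 fold changes of -0.21 (SE 0.26) for PHL + CMS against Veh + CMS and 0.15 (SE 0.26) for Veh + CMS against Veh.

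**Figure D4:**
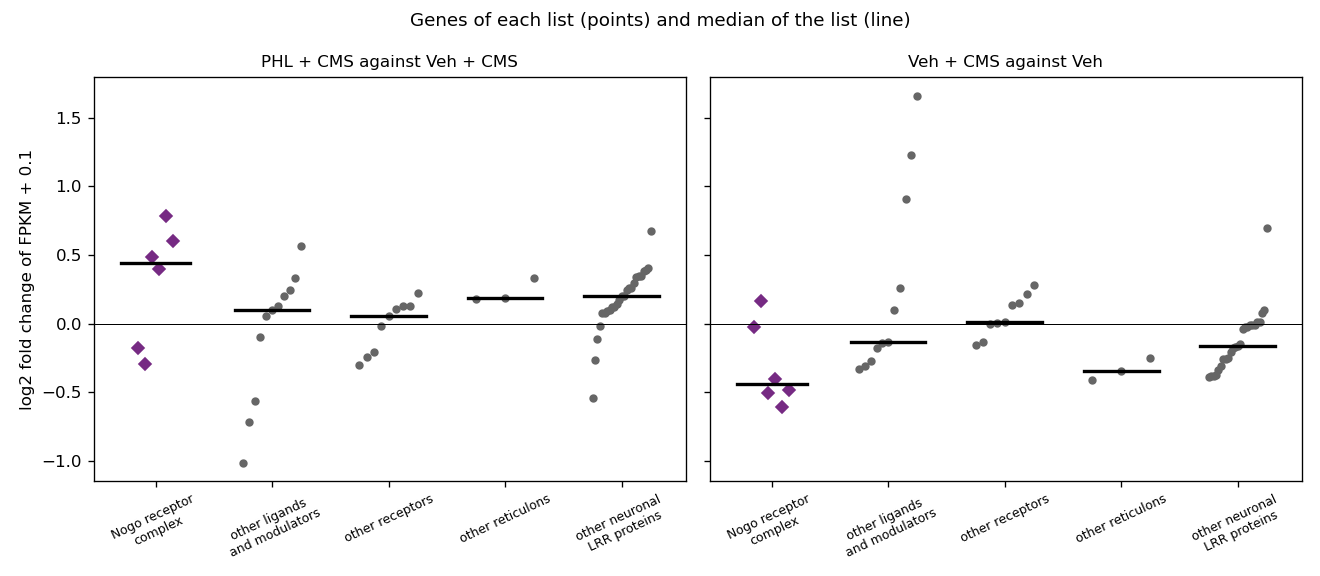
Log2 fold change of FPKM + 0.1 (vertical axes) of the 6 genes of the Nogo receptor complex (diamonds) and of the genes of 4 other lists (dots, sorted within each list), for PHL + CMS against Veh + CMS and for Veh + CMS against Veh, with the median of each list as a line. The medians of the complex are 0.44 and -0.44, and in the second panel the 3 highest dots among the other ligands are Mag (1.66), Sema4d (1.23) and Vcan (0.91).

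The relatives of both protein families were set beside them. The other reticulons Rtn1, Rtn2 and Rtn3 had log2 fold changes of -0.41 (SE 0.10), -0.34 (SE 0.11) and -0.25 (SE 0.09) for Veh + CMS against Veh, without overlap, against 13.5% of all genes, and without passing limma (adjusted p = 0.0535 for Rtn1, the lowest). Rtn4 was at -0.02 in that comparison. For PHL + CMS against Veh + CMS they were at 0.33 (SE 0.10), 0.18 (SE 0.11) and 0.19 (SE 0.09). Among 25 other neuronal surface proteins with leucine-rich repeats, 20 were below 0 for Veh + CMS against Veh and 1 passed in limma as lower, against 1.14% of all genes, with a median of -0.17. The gene was Lrfn4, a synaptic adhesion protein, which fell by 0.38 (SE 0.09, limma adjusted p = 0.0462). For PHL + CMS against Veh + CMS 21 of the 25 were above 0 with a median of 0.20, 0 passed in limma, and 10 were higher and 1 lower at an unadjusted p under 0.05, against 7.51% and 8.22% of all genes. Those with the smallest p were Elfn2 (0.34, SE 0.06), Lrfn2 (0.67, SE 0.15), Lrfn3 (0.41, SE 0.10) and Elfn1 (0.39, SE 0.09), which also act at synapses. Elfn2 was at 36.5 ± 0.240 FPKM in the PHL + CMS group, 28.9 ± 1.23 FPKM in the Veh + CMS group and 28.6 ± 0.116 FPKM in the Veh group (SD, n = 3 each), so it stood apart in the PHL + CMS libraries and not in the Veh + CMS libraries.

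Markers of other cells and regions moved in the same libraries. In bulk tissue fewer cells of a type and less RNA per cell cannot be told apart. Of 16 markers of oligodendrocytes 16 rose in the Veh + CMS group relative to the Veh group at an adjusted p under 0.05 in limma, against 2.65% of all genes. The summed level of these markers was 3561 to 7707 FPKM in the PHL + CMS libraries, 9044 to 12071 in the Veh + CMS libraries and 2646 to 3307 in the Veh libraries. Of 10 markers of excitatory neurons, which express the Nogo receptor, 10 were above 0 for PHL + CMS against Veh + CMS (median 0.41) and 10 were below 0 for Veh + CMS against Veh (median -0.25). In limma 0 of the 10 passed in either comparison. At an unadjusted p under 0.05 there were 5 higher in the first (7.51% of all genes) and 1 lower in the second (11.3%). Their summed level was 2613 to 2897 FPKM in the PHL + CMS libraries, 1996 to 2853 in the Veh + CMS libraries and 2498 to 3323 in the Veh libraries. Of 8 markers of striatum, a neighbouring region, 8 were lower without overlap for PHL + CMS against Veh + CMS, against 10.7% of all genes. For Veh + CMS against Veh 8 were above 0 (median 0.89), with 0 free of overlap and 0 passing in limma. Their sums were 183 to 203, 282 to 693 and 166 to 491 FPKM in the PHL + CMS, Veh + CMS and Veh libraries. Of 8 markers of inhibitory neurons 8 were below 0 for Veh + CMS against Veh (median -0.26), and 2 of them passed in limma, against 1.14% of all genes. Of 6 markers of meninges tested, 6 were above 0 for PHL + CMS against Veh + CMS (median 0.78) and 6 were below 0 for Veh + CMS against Veh (median -0.60), with 0 passing in limma and 0 at an unadjusted p under 0.05. Markers of oligodendrocyte precursors were above 0 for Veh + CMS against Veh in 8 of 8 (median 1.13, 5 passed), those of microglia in 8 of 8 (median 0.26, 0 passed) and those of astrocytes in 5 of 8 (median 0.10, 1 passed). The share of all genes that passed as higher was 2.65%. Calls in this comparison depended on single libraries, as given above. No marker of these lists was listed at 0 in every library. Mitochondrial genes took 6.96% to 9.09% of the reads in PHL + CMS libraries, 9.67% to 13.9% in the Veh + CMS libraries and 9.74% to 10.6% in the Veh libraries. The part of these markers in the differences of the receptors was not tested.

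**Figure D5:**
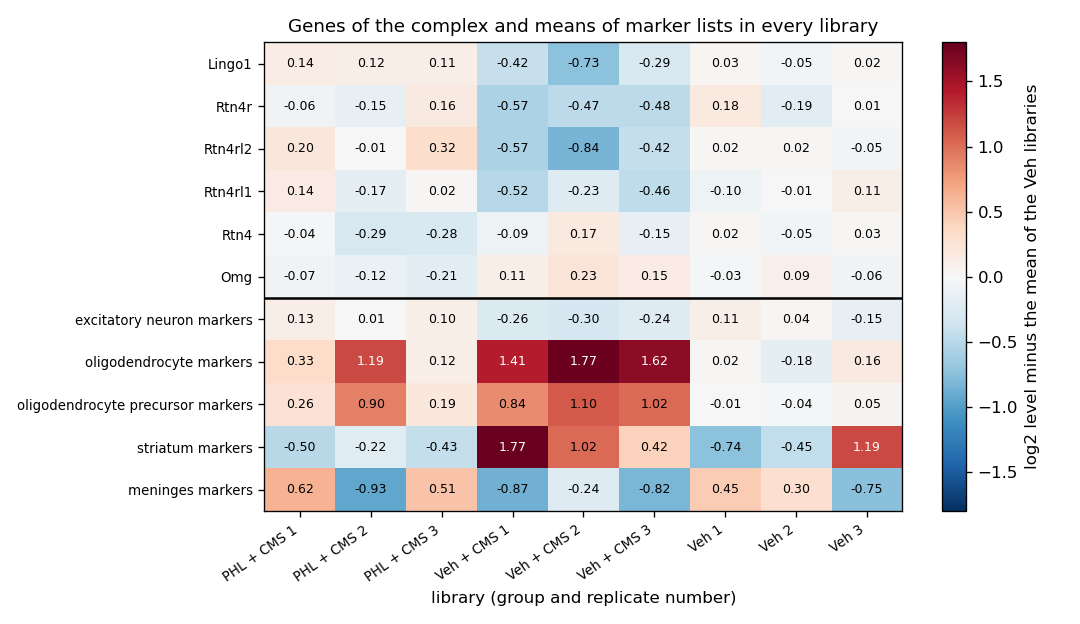
Log2 level minus the mean of the Veh libraries (colour and number) of the 6 genes and, under the line, the mean over each marker list, in the 9 libraries (columns). Oligodendrocyte markers are high in the 3 Veh + CMS libraries (1.41 to 1.77) and in PHL + CMS replicate 2 (1.19). Striatum markers are high in the 3 Veh + CMS libraries (0.42 to 1.77) and in Veh replicate 3 (1.19). Lingo1 is low (-0.73 to -0.29) in the Veh + CMS libraries.

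Some libraries differed in their markers within a group, and the receptors are given beside them as a description. The case in the Veh + CMS group sets 3 single libraries side by side, and those in the PHL + CMS and Veh groups rest on 1 library each. The part of the markers was not tested. In Veh + CMS replicates 1, 2 and 3 the striatum markers were 1.77, 1.02 and 0.42 above the Veh mean on the log2 scale. Lingo1 was at -0.42, -0.73 and -0.29 in these libraries, and Rtn4rl2 at -0.57, -0.84 and -0.42. In PHL + CMS replicate 2 the mean of the oligodendrocyte markers was 1.19 above the Veh mean on the log2 scale, against 0.33 and 0.12 in PHL + CMS replicates 1 and 3. Lingo1 was 0.12 above the Veh mean in that library, against 0.14 and 0.11 in the other PHL + CMS libraries, whereas Rtn4r (-0.15), Rtn4rl1 (-0.17) and Rtn4rl2 (-0.01) were each at the lowest of their group there. In Veh replicate 3 the striatum markers were 1.19 above the Veh mean, against -0.74 and -0.45 in Veh replicates 1 and 2, and Lingo1 was at 0.02, Rtn4r at 0.01, Rtn4rl1 at 0.11 (the highest of its group) and Rtn4rl2 at -0.05 (the lowest of its group).

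Taken relative to the mean of the 10 markers of excitatory neurons in the same library, the log2 difference of PHL + CMS from Veh + CMS was 0.26 for Lingo1 and 0.44 for Rtn4rl2, against 0.60 and 0.78 without that reference. It was 0.15 for Rtn4r and 0.06 for Rtn4rl1, against 0.49 and 0.40. For Veh + CMS against Veh the relative differences were -0.22 for Lingo1, -0.35 for Rtn4rl2, -0.24 for Rtn4r and -0.14 for Rtn4rl1. With this reference the PHL + CMS and Veh + CMS ranges overlapped for Rtn4r and Rtn4rl1, and not for Lingo1 and Rtn4rl2. The Veh + CMS and Veh ranges overlapped for Rtn4r, Rtn4rl1 and Lingo1 (-0.44 to -0.05 and -0.09 to 0.17), and not for Rtn4rl2 (-0.54 to -0.19 and -0.09 to 0.10). All of these relative differences come from ratios within a library and are given as a description. For Lingo1 and Rtn4rl2 they rest on the values that chose both genes, and the part of neuronal content in any of the differences was not tested.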

How the data were processed

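The mPFC libraries of the PHL + CMS, Veh + CMS and Veh groups were compared (3 libraries each, taken from the sample titles). The authors deposited 1 table of FPKM for 34463 Ensembl genes. Per the submitters' notes, reads were aligned with HISAT2 to Rnor_6.0. No counting tool, tool version or annotation is given in the sources used here. FPKM multiplied by the deposited gene length gave whole multiples of 1 step per library (100% of values above 0, to within 1e-06 of the count), taken as reads.

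Testing was limited to genes whose mean reached 0.5 FPKM (16159, and 18304 were left out, where small differences cannot be detected). Values of log2(FPKM + 0.1) went into limma 3.58.1 (R 4.3.3), with a variance trend and all 3 groups, two-sided, with Benjamini-Hochberg adjustment over all genes tested and a threshold of 0.05. With 3 libraries against 3 an exact permutation test cannot go below p = 0.1, so none was run. Lists were written by hand. The result of 1 of them is not reported here. The members, lists and tests were chosen with earlier results of these data known. Named were the 7 genes, list genes past the threshold, up to 4 per list and comparison with the smallest p, and the 4 genes with the nearest profile. Alternatives covered the pseudocount, filter, scaling, quantile normalization, groups in the fit, moderation, a replicate block, each library left out, and voom. Scaling by each library's read total, with or without mitochondrial genes, was chosen after seeing the data. The fit was tested on simulated data. The labels name no batch. No p is given for any of the 6 genes in the comparison that chose them, nor for Lingo1 and Rtn4rl2 elsewhere, which is stricter than first planned.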

Additional observations from a re-analysis of the deposited data

How the results depend on the processing

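For PHL + CMS against Veh + CMS the 6 genes kept their direction in every alternative run. Lingo1 and Rtn4rl2 were picked by this comparison, so their kept direction was favoured by the choice. With each library left out in turn, the log2 fold change was between 0.48 and 0.70 for Lingo1 and between 0.67 and 0.87 for Rtn4rl2. The other ranges were 0.40 to 0.55 for Rtn4r, 0.32 to 0.48 for Rtn4rl1, -0.33 to -0.26 for Omg and -0.26 to -0.08 for Rtn4. For Veh + CMS against Veh the same ranges were -0.58 to -0.36, -0.70 to -0.50, -0.60 to -0.42, -0.49 to -0.34, 0.13 to 0.21 and -0.12 to 0.040, in the same order of genes. The call of Rtn4r was also lost with no filter on low values (limma adjusted p = 0.0608), quantile normalization (0.0716), a model restricted to this pair of groups (0.0561) and moderation without trend (0.0802), and was kept with voom (0.0286); the lowest and highest adjusted p with a library left out were 0.0386 and 0.131. Values near 0 changed sign: Rtn4 for Veh + CMS against Veh was 0.082 with quantile normalization, and for PHL + CMS against Veh Rtn4r and Rtn4rl1 were 0.021 and 0.0016 with quantile normalization, 0.00066 and 0.016 with voom, and 0.0015 and 0.014 when scaled by the read total of each library, with -0.11 to 0.073 for Rtn4r and -0.078 to 0.080 for Rtn4rl1 with a library left out. The causes were not tested.

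The count of genes past an adjusted p of 0.05 in limma was 0, 613 and 0 for PHL + CMS relative to Veh + CMS, for Veh + CMS relative to Veh and for PHL + CMS relative to Veh. It was 6, 301 and 4 with no filter on low values, and 1 and 2 for the first and second comparison with moderation without trend. With a library left out it ran from 0 to 285, from 0 to 798 and from 0 to 1. Quantile normalization gave 448 genes in the second comparison, 363 higher and 85 lower, against 428 and 185. The replicate numbers are shared between groups, but the labels do not say that they pair the libraries: of 9 same-numbered pairs 0 had a correlation of their deviations over 0.1 (range -0.10 to 0.05), and the own number correlated best in 5 of 18 cases. With the replicate block the second comparison had 0 genes past the threshold, and Rtn4r had an adjusted p of 0.0762 by limma.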
